A study of Mus musculus with 2 samples.

Results

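The replication-dependent histone genes are the protein-coding genes of GENCODE M21 whose symbol starts with Hist1h, Hist2h, Hist3h or Hist4h. This rule gave 67 of 21951 protein-coding genes, named by position and not by any measured value. By type they were 6 H1, 18 H2A, 18 H2B, 12 H3 and 13 H4 genes. By location, 54 lay in the Hist1 cluster on chromosome 13, 10 in Hist2 on chromosome 3 and 2 in Hist3 on chromosome 11. Hist4h4 was the only member on chromosome 6. Their chromatin was mapped by DNase-seq, which sequences the ends left where the nuclease DNase I reaches DNA in isolated nuclei, so that open chromatin shows as peaks of cuts. The tissue was spleen of male B6CASTF1/J mice aged 10 days, the first generation of a cross between C57BL/6 and CAST/EiJ. There were 2 libraries in 1 group, numbered as biological replicates 1 and 2 under a shared donor identifier and taken as separate animals. No condition was contrasted, so the spread between these libraries is the only error available.

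Core histones H2A, H2B, H3 and H4 form the protein spool around which DNA is wrapped, and linker histone H1 sits where DNA enters and leaves it. The replication-dependent genes supply the bulk of these proteins while DNA is copied. Their mRNAs end in a stem-loop in place of a poly(A) tail, most have no introns, and H2A and H2B genes often stand head to head around a shared promoter. NPAT, an activator that gathers at the clusters, and HINFP, which binds H4 promoters, are the textbook regulators. In mouse, Hist1h1t, Hist1h2aa and Hist1h2ba encode forms made in the male germ line. At this age the mouse spleen still makes red blood cells.

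The promoters below show the DNA the results turn on. They include the strongest H4 promoter of each library (Hist1h4a in replicate 1, Hist1h4c in replicate 2) and that of Hist4h4. An H2A/H2B pair, the strongest H1 promoter, an H3 promoter and 2 germline genes are also shown. Each is the stretch just before the start site given by RefSeq (GRCm38.p6, the mm10 assembly), read 5′ to 3′ on the gene's strand. Capitals mark bases inside a called footprint of both libraries, a footprint being a short protected stretch within open chromatin. The stretches are chr13:23698459-23698708 (minus strand) for Hist1h4c, chr13:23761250-23761499 (minus) for Hist1h4a and chr6:136804432-136804681 (minus) for Hist4h4. Those of Hist1h2bk, Hist1h1c and Hist1h3b are chr13:22035644-22035820, chr13:23738557-23738806 and chr13:23752095-23752344, all on the plus strand. The germline genes are shown at chr13:23934187-23934436 (Hist1h2aa, plus) and chr13:23695561-23695810 (Hist1h1t, plus). The Hist1h2bk stretch ends upstream at the start site of its partner Hist1h2ah.
Hist1h4c: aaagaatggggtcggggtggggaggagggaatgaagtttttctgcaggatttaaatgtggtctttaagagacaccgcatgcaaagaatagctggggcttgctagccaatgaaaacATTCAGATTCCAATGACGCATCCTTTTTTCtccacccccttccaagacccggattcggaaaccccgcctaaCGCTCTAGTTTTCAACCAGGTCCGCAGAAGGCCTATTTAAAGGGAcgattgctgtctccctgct
Hist1h4a: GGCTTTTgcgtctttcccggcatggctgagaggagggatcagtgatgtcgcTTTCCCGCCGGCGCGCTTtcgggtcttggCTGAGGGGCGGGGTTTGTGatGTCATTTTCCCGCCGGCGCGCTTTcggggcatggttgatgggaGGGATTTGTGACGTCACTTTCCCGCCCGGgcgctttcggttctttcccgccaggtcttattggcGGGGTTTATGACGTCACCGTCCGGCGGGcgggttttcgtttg
Hist4h4: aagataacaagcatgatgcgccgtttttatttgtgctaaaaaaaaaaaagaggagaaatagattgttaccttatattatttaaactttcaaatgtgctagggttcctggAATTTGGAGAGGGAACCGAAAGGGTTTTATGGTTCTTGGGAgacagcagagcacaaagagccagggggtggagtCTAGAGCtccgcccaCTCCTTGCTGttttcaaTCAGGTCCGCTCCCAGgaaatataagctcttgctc
Hist1h2bk: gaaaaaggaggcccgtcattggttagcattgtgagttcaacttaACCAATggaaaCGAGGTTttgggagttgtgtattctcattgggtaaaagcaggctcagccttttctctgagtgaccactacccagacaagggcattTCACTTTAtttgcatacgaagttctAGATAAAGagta
Hist1h1c: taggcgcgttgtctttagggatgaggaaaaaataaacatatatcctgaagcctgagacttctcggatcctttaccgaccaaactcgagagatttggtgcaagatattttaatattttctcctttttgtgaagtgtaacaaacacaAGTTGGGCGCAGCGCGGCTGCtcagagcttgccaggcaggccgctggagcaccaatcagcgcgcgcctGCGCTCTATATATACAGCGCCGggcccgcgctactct
Hist1h3b: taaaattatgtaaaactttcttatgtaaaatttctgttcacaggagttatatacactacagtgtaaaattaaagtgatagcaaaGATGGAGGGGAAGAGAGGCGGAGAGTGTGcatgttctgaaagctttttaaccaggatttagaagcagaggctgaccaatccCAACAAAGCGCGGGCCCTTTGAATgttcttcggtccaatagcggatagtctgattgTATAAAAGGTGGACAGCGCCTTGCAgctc
Hist1h2aa: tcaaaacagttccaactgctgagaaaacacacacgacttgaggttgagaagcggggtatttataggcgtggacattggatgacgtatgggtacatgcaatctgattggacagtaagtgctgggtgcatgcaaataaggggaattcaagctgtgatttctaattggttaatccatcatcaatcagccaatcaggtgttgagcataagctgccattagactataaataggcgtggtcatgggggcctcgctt
Hist1h1t: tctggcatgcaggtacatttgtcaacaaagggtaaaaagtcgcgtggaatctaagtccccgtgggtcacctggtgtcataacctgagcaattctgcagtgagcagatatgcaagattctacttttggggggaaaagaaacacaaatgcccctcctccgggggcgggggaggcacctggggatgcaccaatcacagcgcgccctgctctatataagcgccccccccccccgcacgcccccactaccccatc
In Hist1h4a 125 of the 250 bases lay in footprints of both libraries, against 75 in Hist1h4c, 74 in Hist4h4, 78 in Hist1h3b and 43 in Hist1h1c. The Hist1h2bk and Hist1h2ah interval had 29 of 177 such bases. Neither germline promoter had any.

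Almost all histone promoters were open in both libraries. A promoter counted as open when a deposited peak lay within 500 bp of any transcription start site (TSS). In replicate 1, 62 of the 67 genes were open (92.5%, 95% exact Clopper-Pearson interval 83.4 to 97.5), where 67.6% of all protein-coding genes were. In replicate 2 the same 62 were open, against 61.3% of all genes. Both libraries together therefore also gave 62 of 67, where the figure over all genes was 60.7%. Those intervals cover counting error over genes only. Within the strongest promoter peak, 61 of the 62 open genes held at least 1 footprint in each library, against 96.9% of all genes with a peak in both. All 6 H1, all 12 H3 and all 13 H4 genes were open, as were 15 of 18 H2A and 16 of 18 H2B genes.

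Signal is the density that the authors deposited for a peak, scaled to depth by a constant that the sources used here do not give. Levels are therefore compared inside each library, and across the libraries as ratios alone. The median over the 62 open histone genes was 5.34 in replicate 1 and 5.85 in replicate 2, and over all protein-coding genes with a peak it was 6.93 and 3.51. As a percentile among all open promoters of the same library, the median histone gene stood at 44.3 in replicate 1 and at 70.1 in replicate 2. H4 genes led in both, with medians of 14.1 and 10.4 (percentiles 71.2 and 92.9). H1 followed with 8.495 and 6.08, H3 with 5.26 and 5.46, H2A with 4.89 and 5.85, and H2B with 4.59 and 5.50. The order of the last 3 types differed between the libraries and their ranges overlapped. As 9 strongest peaks served 2 genes each, the 62 open genes had 53 distinct strongest peaks in each library.

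**Figure D1:**
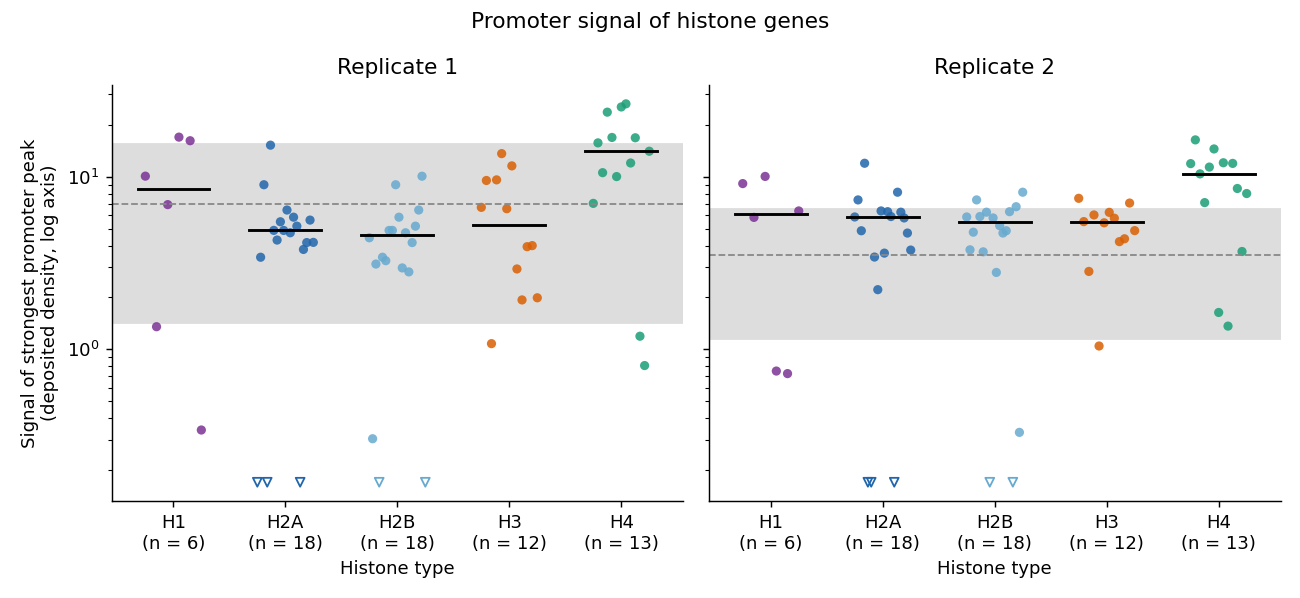
Signal of the strongest promoter peak (log axis) of each histone gene by type, with replicate 1 at left and replicate 2 at right. Black bars are type medians, the grey band and dashed line are the quartiles and median of all open protein-coding promoters, and open triangles mark the 5 genes with no peak. The H4 median of 14.1 in replicate 1 lies above the line at 6.93, and that of 10.4 in replicate 2 lies far above the line at 3.51.

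Among the linker histone genes, Hist1h1c had signals of 16.98 in replicate 1 and 10.1 in replicate 2, Hist1h1e 16.2 and 9.14, and Hist1h1a 10.1 and 5.82. These encode somatic H1 subtypes, and in replicate 2 their promoters stood at percentiles 91.9, 88.8 and 69.8 of all open promoters. Hist1h1b was lower, at 6.90 and 6.34, but its peak held 10 footprints in replicate 1 and 5 in replicate 2. Hist1h1d was the weakest by the rule, at 0.341 and 0.724. Its annotated TSS lies 1828 bp before the first coding base, and around that base the peaks had signals of 11.0 and 7.98, above those of Hist1h1a and Hist1h1b in both libraries. The testis-specific Hist1h1t reached 1.35 and 0.749, from a peak centred 507 and 509 bp after the TSS and so inside its coding sequence. Of the 300 bases before its first codon, none was below a false discovery rate (FDR) of 0.001 in either library.

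The highest H2A signal in both libraries was that of Hist2h2aa2, with 15.3 in replicate 1 and 12.0 in replicate 2. Next by the mean of both libraries were Hist1h2ad (8.998 and 6.28) and Hist2h2ac (6.42 and 8.14). Hist2h2aa1, a near copy of Hist2h2aa2, had 5.49 and 3.76. The lowest open H2A genes by this mean were Hist2h2ab (3.80 and 2.22) and Hist1h2ab (4.17 and 3.43). Among H2B genes the highest means were those of Hist2h2bb (10.1 and 6.71), Hist1h2bf (8.998 and 6.28) and Hist2h2be (6.42 and 8.14). Hist3h2ba, a member of the small Hist3 cluster, had 3.12 and 2.79, with 4 footprints in replicate 1 and 11 in replicate 2. Its neighbour Hist3h2a had 5.61 and 6.34, and that peak also lay at the promoter of Trim17, so it cannot be assigned to 1 gene. The peak shared by Hist1h2an and Hist1h2bp held the most footprints over both libraries, 9 and 7.

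Identical values for 2 genes come from shared promoters. There were 12 head-to-head H2A/H2B pairs, with 176 to 306 bp between their most upstream start sites (median 259.5), and 9 of them had 1 strongest peak in common in both libraries. Hist1h2ad with Hist1h2bf, Hist2h2ac with Hist2h2be, and Hist1h2ah with Hist1h2bk are examples, the last with 4.16 in replicate 1 and 4.72 in replicate 2. Another 2 pairs had no peak, and the germline pair Hist1h2aa and Hist1h2ba had none in common. A shared peak does not say which of its genes it serves.

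H3 genes ranged widely. Hist1h3e had 13.6 in replicate 1 and 7.51 in replicate 2, Hist1h3b 11.6 and 6.23, and Hist1h3c 9.60 and 5.76. The lowest means were those of Hist2h3c1 (1.08 and 1.05) and Hist2h3c2 (2.93 and 2.83), copies with near-identical promoters in Hist2. How reads were placed between these copies is not known. The third Hist2 member of this type, Hist2h3b, had 6.53 and 5.41. Hist1h3d (1.94 and 4.21) and Hist1h3i (1.99 and 5.50) were below Hist2h3c2 in replicate 1 and above it in replicate 2, where the H3 median was 5.46.

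Of the H4 genes, Hist1h4a had the strongest peak in replicate 1, at 26.5 (percentile 93.2), and 10.4 in replicate 2 (92.9). Hist1h4c reached 25.4 and 16.4, the latter at percentile 99.4 of all open promoters in its library, and Hist1h4i 23.7 and 14.5. The H4 genes of the small loci were close to one another, with 16.8 and 12.1 for Hist2h4 and 15.7 and 12.0 for Hist4h4. The weakest were Hist1h4m (1.19 and 1.64) and Hist1h4n (0.806 and 1.36), whose promoters are copies of each other. Read placement between them is likewise unknown. Footprints took up 46.8% of the peak bases of H4 genes in replicate 1 and 44.9% in replicate 2. In the peaks of all genes open in both libraries they took up 36.1% and 30.1%. Every other histone type was below these shares. Other lists treated below were above them, with 41.2% and 37.5% for histone transcription and 3′ end factors. Histone chaperones had 42.2% and 33.1%, and replication-independent variants 39.3% and 32.6%. Peaks of like signal were not compared, and the part of signal in the H4 share was not tested.

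Along the clusters, strong H4 and H1 promoters stood between weaker H2A, H2B and H3 promoters. The genes of the Hist1 cluster fell into 4 sub-clusters, split where neighbouring start sites lay over 100 kb apart, with 18, 5, 29 and 2 members. Sites present in both libraries (overlapping peaks, merged) numbered 38 over the 119 kb of the first, 8 over 8.65 kb of the second and 79 over 234 kb of the third, which is 320, 925 and 338 per Mb. Hist2 had 24 sites over 50.9 kb (472 per Mb), and the genome as a whole had 26.7 per Mb. These spans were cut close around histone start sites and the genome was not, so their densities cannot be compared on equal terms. The 1.31 kb span of the germline pair Hist1h2aa and Hist1h2ba gave 765 per Mb from 1 site. Hist1 from end to end had 100 per Mb. In the third sub-cluster 40 of the 79 sites lay at histone promoters and 38 outside any promoter. Between the sub-clusters, 7 of 48 neighbouring protein-coding genes were open in both libraries, led by Zfp322a (19.2 and 6.95) and Abt1 (15.96 and 6.22). The vomeronasal receptor genes there (Vmn1r names), which serve pheromone sensing, made up most of those with no peak.

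**Figure D2:**
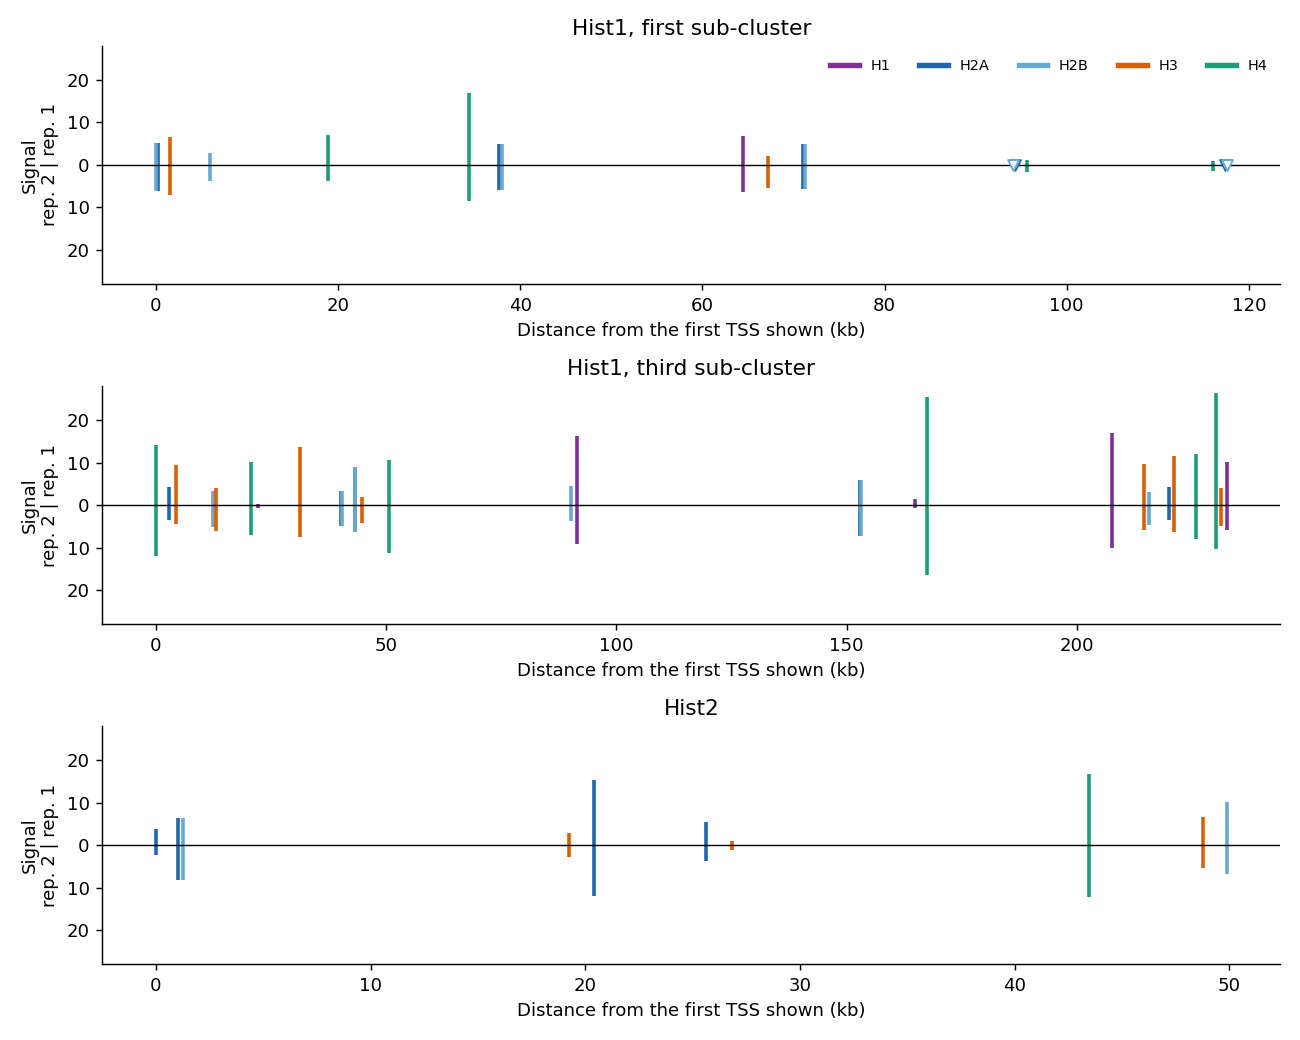
Promoter signal of each histone gene in 3 groups of genes, against distance in kb from the first TSS of the group. Bars above the line are replicate 1, bars below it replicate 2, colours give the type, and open triangles mark genes with no peak. H4 bars (green) are the tallest in each sub-cluster, at up to 26.5 in replicate 1 and 16.4 in replicate 2.

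Openness ran on through the short genes. The median histone gene had 91.0% of the 300 bases before its first codon below an FDR of 0.001 in replicate 1 and 100% in replicate 2. In the coding sequence this was 55.9% and 53.7%, and in the 300 bases after it 32.7% and 87.3%. Over 284 other single-exon genes with an open promoter in both libraries, the medians were 100% and 78.9% before, 51.5% and 20.95% within, and 0% and 0% after the coding sequence. These genes were not matched to the histone genes in coding length or in nearness to other open promoters. The part of either in the difference was not tested. For Hist4h4, the only member on chromosome 6, the coding sequence and the 300 bases after it were covered to 100% in both libraries. Its nearness to open promoters of genes outside the list was not measured. Repeated sequence bears on these shares, as 58 of the 67 coding sequences had under 80% of their 32-base words found once in the genome, and the sources used here do not say how reads from repeats were counted.

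Histone genes without a peak were of 2 kinds. Hist1h2ao, Hist1h2bq, Hist1h2ap and Hist1h2br had no peak and no base below an FDR of 0.05 in either library. All 4 lie in a duplicated block at the end of the first sub-cluster, and 0% of the 32-base words of their promoters occur once in the genome. For these 4 genes, closed chromatin and reads that could not be assigned to 1 copy cannot be told apart. The fifth, the germline gene Hist1h2aa, had no peak and no such base although 100% of its promoter words occur once. Its partner Hist1h2ba had only a peak of 0.304 in replicate 1 and 0.331 in replicate 2, centred 407 and 399 bp after its TSS, with no base below 0.001 in the 1001 bases around the TSS. Of the members with mostly single-copy promoters, 54 of 55 were open, Hist1h2aa being the exception.

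The closed germline gene did not lack the usual promoter letters. In the Hist1h2aa promoter printed above, TATAAA starts 32 bases before the TSS, CCAAT or its complement occurs 4 times, and the octamer ATTTGCAT is present on the opposite strand. No base of it lay in a footprint. Germline histone variants outside the clusters were likewise closed. Of 7 such genes H1foo, H2afb1, H2afb2, H2afb3, H2al2a and Hils1 had no peak in either library, and H1fnt had one of 0.248 in replicate 1 only.

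Known promoter motifs were spread unevenly over the histone types. Motifs were searched on both strands from 250 bases before to 50 after the most upstream TSS, where 21938 protein-coding promoters served for comparison. CCAAT, the NF-Y site, occurred in 56 of 67 histone promoters (83.6%) and in 39.0% of all promoters. It was in all 18 H2A, all 18 H2B and 11 of 12 H3 promoters but in 4 of 13 H4 promoters. At least 2 copies were present in 47 histone genes, counted from the RefSeq TSS where a nearby entry was matched. Counted from the most upstream TSS, 12.7% of all promoters had at least 2. TATAAA, the TATA box, occurred in 37 histone promoters (55.2%) against 12.6% of all. The octamer ATTTGCAT, the site of OCT1, occurred in 8 of 18 H2B and 7 of 18 H2A promoters and in none of the other types, against 1.57% of all promoters. Both members of a pair can hold the same copy. AAACACA, the H1 box, was in 4 of 6 H1 promoters and in 6.4% of all, and TTTCGCGC, an E2F-like site, in 9 H2A or H2B promoters and 0.351% of all. GGGCGG, the GC box, was in 28 histone promoters (41.8%), near the 43.0% of all, with 10 of them H4. TTTGGCGC, another E2F-like site, was in none, and in 0.693% of all.

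One short word recurred in the H4 genes. GGTCCG, found by reading which 8-base words recur by type and so chosen after the promoters were seen, occurred in 12 of 13 H4 promoters, in 3 of 54 others and in 9.6% of all promoters. It belongs to the H4 element that HINFP binds. In replicate 1, 10 of the 13 H4 peaks contained it, and 100% of its bases there lay inside footprints. In replicate 2 it was again in 10 peaks with 100% of its bases in footprints. In the peaks of other genes, 32.7% of its bases lay in footprints in replicate 1 and 29.5% in replicate 2. The copies of Hist1h4c and Hist4h4 can be read within the capitals above.

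Hist1h4a was the H4 gene without GGTCCG. Its promoter held TTCCCGCC, a word of E2F sites, 4 times, and at least 3 copies occurred in 0.00912% of all promoters. It also held TGACGTCA, the cAMP response element, 2 times. Neither word was particular to Hist1h4a. At least 1 copy of TTCCCGCC was in 6 of 13 H4 promoters, 0 of 54 other histone promoters and 2.96% of all promoters. For TGACGTCA this was 2 of 13, 2 of 54 and 2.43%. Both words were picked from its sequence after it was seen. They recur in the capitals of its printed promoter. Hist1h4a also had no 3′ stem-loop. A stem of 6 paired bases starting with GG and a loop of 4 was sought in the 200 bases after the stop codon, and 63 of 67 genes had one. The most frequent form, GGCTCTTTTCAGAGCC (loop in the middle, stem on either side), was present in 41 genes, and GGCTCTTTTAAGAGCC in 9. Allowing 1 unpaired position, any loop with TT, and 400 bases added Hist1h2an and Hist1h3g, and left Hist1h4a and Hist2h2be without a match.

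Footprints lay on TATA boxes. In the 53 distinct histone peaks of replicate 1 there were 17 matches to TATAAA, and 92.2% of their bases lay in footprints, beside 33.6% of all bases of these peaks. In replicate 2 there were 25 matches with 88.0%, beside 29.5%. In the peaks of other genes the TATA share was 35.3% and 38.9%. With matches on the gene's strand 20 to 40 bases before the TSS alone, the share was 98.3% over 10 histone genes and 43.1% over 65 other genes in replicate 1. In replicate 2 it was 90.9% over 11 and 57.9% over 59. The CCAAT box did not stand out, with 37.9% of its bases in footprints in replicate 1 and 30.6% in replicate 2, and neither did it in other genes (33.7% and 31.4%). GC boxes had 58.1% and 48.5%, against 62.5% and 56.2% in other genes. DNase I has a sequence preference of its own, and its part in these shares was not tested.

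**Figure D3:**
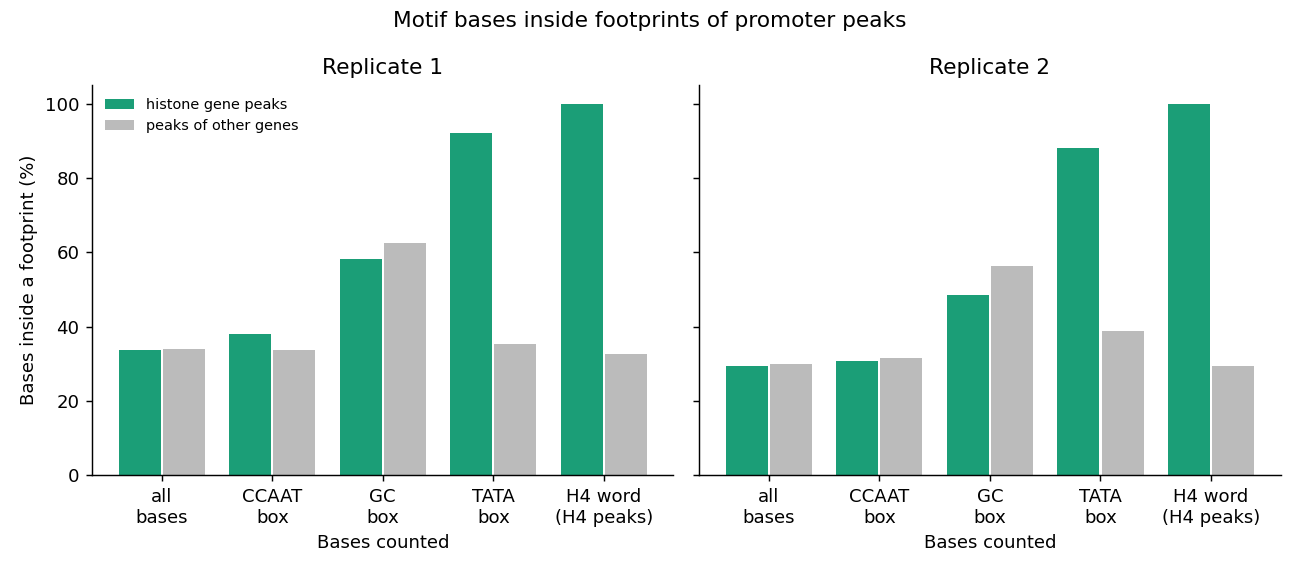
Percent of bases inside a called footprint, for all bases of the strongest promoter peaks and for motif matches in them, with histone genes in green and other protein-coding genes in grey. The last pair is the word GGTCCG, counted for histones in H4 peaks only. TATA boxes of histone peaks reach 92.2% and 88.0%, whereas CCAAT boxes stay near the level of all bases.

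Measured from the first coding base, footprints of H3 and H4 genes were most frequent at the same distance in both libraries. Over 9 H4 genes with mostly single-copy promoters, cover was highest in both libraries in the 10 bases starting 80 before the coding start, where it reached 81.1% of genes in replicate 2. In the next 10 bases it was 76.7% in replicate 1 and 78.9% in replicate 2. Over 10 H3 genes it was highest 60 before, at 79.0% and 90.0%. H2B genes peaked at 59.3% in both libraries, 60 before the coding start in replicate 1 and 70 before it in replicate 2. H2A genes differed in the position of highest cover, 10 after the coding start in replicate 1 (60.7%) and 140 before it in replicate 2 (50.7%). Lower cover was shared by both libraries 80 before the coding start, at 46.4% in replicate 1 and 45.0% in replicate 2. H1 genes also differed, with the highest cover 150 before in replicate 1 (88.0%, against 62.0% in replicate 2) and 70 before in replicate 2 (74.0%).

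**Figure D4:**
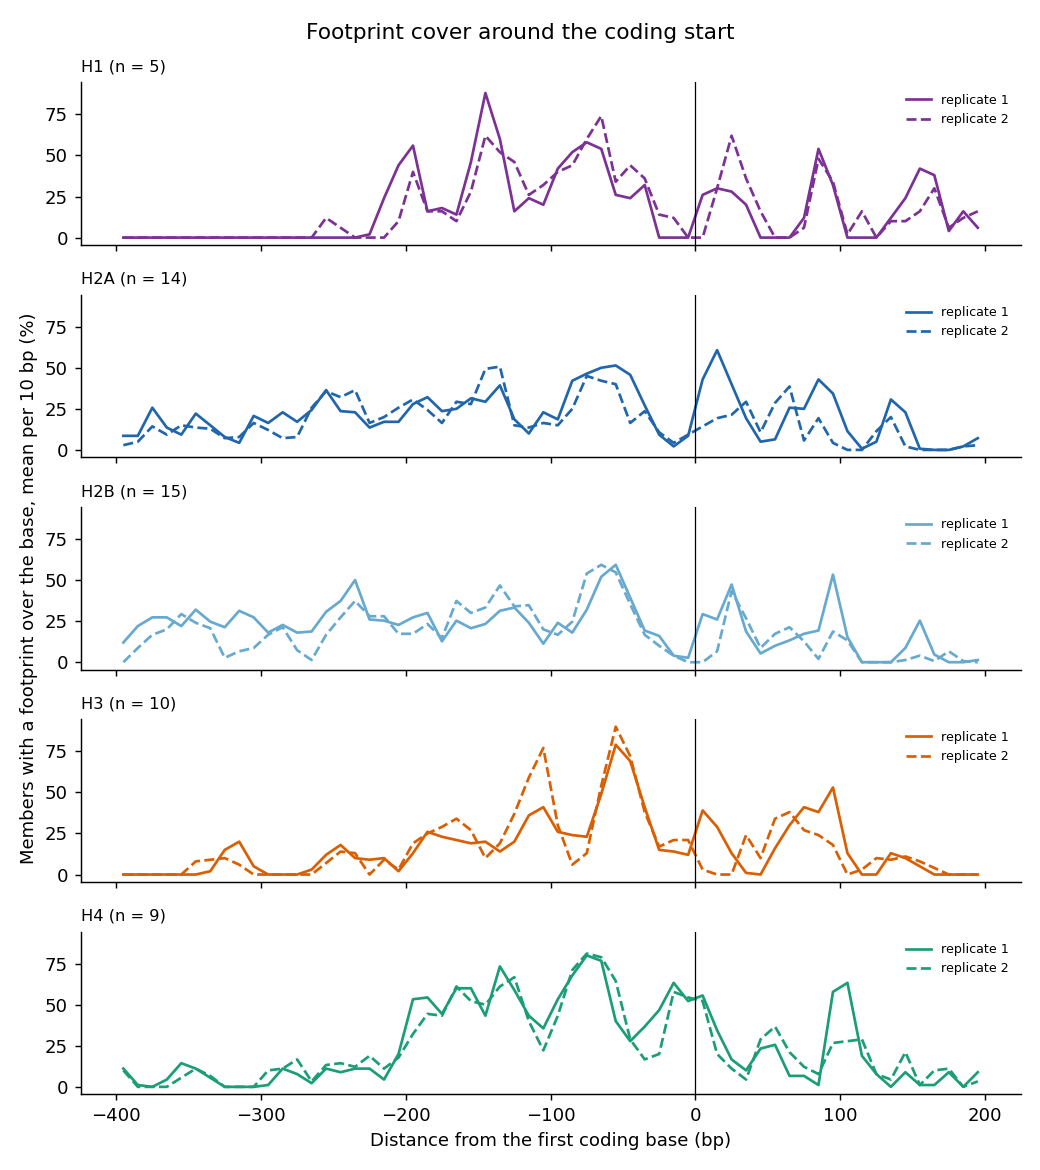
Share of histone genes of each type with a footprint over each position, as the mean of 10 bp bins, against distance from the first coding base. Solid lines are replicate 1 and dashed lines replicate 2. The H3 crest of 79.0% and 90.0% at 60 bp before the coding start and the H4 crest near 80 bp before it appear in both libraries.

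The ratio between the libraries was lower at the histone genes than at most promoters. Over the 13323 protein-coding genes open in both, the log2 ratio of replicate 1 signal to replicate 2 signal had a median of 1.28. Over the 62 open histone genes the median was 0.05, and 61 of them lay below 1.28. The ratio was below 0 in 30 of 62 (48.4%, exact interval 35.5 to 61.4), where 1.4% of all genes were below 0. Counted over distinct peaks, 22 of 53 were below 0, with a median of 0.24. Where the strongest peaks of both libraries overlapped, in 58 histone genes, 27 were below 0. Among 3259 other genes whose replicate 1 signal lay between the quartiles of the histone genes, 3.83 and 10.1, the median ratio was 1.27 and 0.307% were below 0. Of the 30 histone genes below 0, 12 had a replicate 2 signal above the histone median, as did 11 of the 156 other genes below 0. The peak shared by Hist3h2a and Trim17 was counted on both sides. This cut came from the histone genes themselves. The number of other genes above it at any ratio was not counted, so these counts give no share over all genes.

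By type, the median ratio was 0.77 for H1, 0.50 for H4, 0.05 for H3, -0.18 for H2A and -0.26 for H2B. Of the 21 open head-to-head genes 19 were below 0 (median -0.27), and of the 41 other members 11 were. In 9 H2A/H2B pairs both genes had the same peak, so 1 ratio was counted for 2 genes. The H2A and H2B medians hold the same repeats. The head-to-head genes also include Hist1h2bh with Hist1h3f, and Hist1h2ba with its weak peaks of 0.304 and 0.331. Hist1h3i had the lowest ratio, -1.47, followed by Hist1h3d at -1.12 and Hist1h1d at -1.09. The Hist1h1d value came from weak peaks of 115 bp in replicate 1 and 880 bp in replicate 2. Around its first coding base, with signals of 11.0 and 7.98, the ratio was 0.46. The highest were Hist1h4a at 1.35, Hist1h3g at 1.12 (9.52 in replicate 1 and 4.38 in replicate 2) and Hist1h4k at 0.98 (16.9 and 8.56). Hist1h4a was the only histone gene above the median of all genes. The 16 members whose peak words all occur once in the genome, mostly H4 and H1 genes, had a median of 0.59, and 3 of them were below 0. The part that read placement plays in the remainder was not tested. With only 2 libraries, taken as separate animals, their difference in animal, cells, nuclei or preparation cannot be told apart.

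**Figure D5:**
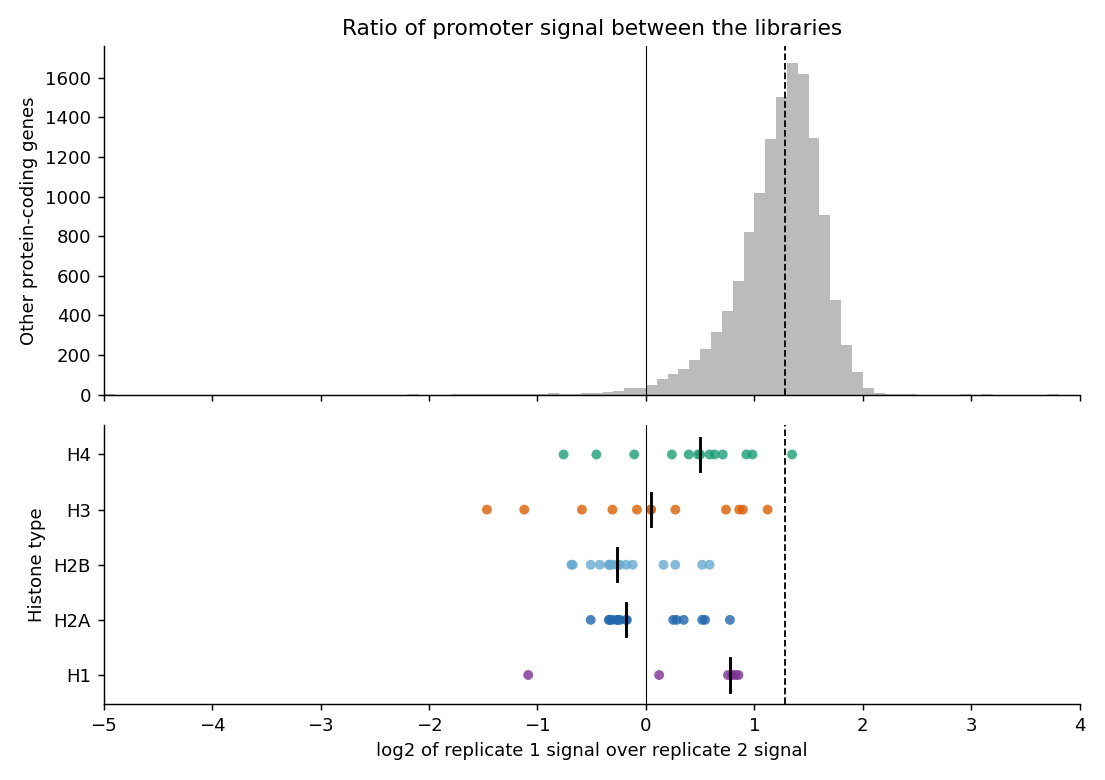
Log2 ratio of promoter signal, replicate 1 over replicate 2. Above, a histogram of other protein-coding genes open in both libraries; below, each open histone gene by type with the type median as a bar. The dashed line is the median of the other genes, close to 1.28, and the solid line is 0. All but 1 of the 62 histone points lie left of the dashed line, and 30 lie left of 0.

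Genes that serve the histone genes had ratios closer to that of all genes. The lists were chosen with earlier results of these data known. Replication-independent histone variants, most of which are made throughout the cell cycle from ordinary poly(A) mRNAs, were open in 11 of 11. Their median ratio was 1.18, with a range of 0.71 to 1.68. H2afv (30.5 and 10.2) and H2afx (26.8 and 11.9) had the highest means. Of the factors for histone transcription and 3′ end formation, 21 of 21 were open, with a median ratio of 1.37, a lowest value of 1.10, and the highest mean signals of both libraries at Ccne1 (40.8 and 18.6), which encodes cyclin E1, and Lsm11 (28.5 and 13.3), a part of the U7 particle. Npat itself had 28.7 and 9.83. Histone chaperones were open in 11 of 11 (median ratio 1.43), with the highest means at Daxx (27.3 and 10.1) and Chaf1a (25.999 and 8.51). None of the genes in these 3 lists was below 0.

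The tissue label was checked on promoters of spleen cell types. Of 9 such genes 7 were open in both libraries, the highest being the red cell gene Epor at 17.9 and 6.22 and the lymphocyte gene Lck at 14.9 and 5.70. Cd3e (0.439) and Nkx2-5 (0.405) had a peak in replicate 1 only. Alb and Myh6, of liver and heart, had no peak in either library. Replicate 1 had 130476 peaks and replicate 2 had 95847, and 404781 and 276537 footprints were called. Read totals are unknown, so differences in the number of calls cannot be set against depth.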

How the data were processed

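DNase-seq peaks, footprints and cut-rate tables of 2 spleen libraries were used as deposited by the authors, on mm10 and unpooled, per the deposited descriptions. The sources used here give no aligner, caller or version. Peak signal is a depth-scaled density as deposited. The FDR values are q-values per stretch of bases, deposited by the authors, all below 0.05. The footprints' value column, another number the authors deposited, was the constant 0.01, so positions alone were used. The longer peak list was taken.

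For each gene the strongest peak within 500 bp of any GENCODE M21 TSS was kept, with footprints whose midpoint lay in it. Shares have exact 95% intervals. Percentiles rank open promoters within a library. Words of 32 bases were counted over the genome, a promoter with under 80% found once being called repeated. Python 3.11.15, pandas 2.3.3, pysam 0.24.0 and bedtools were used, and the code was tested on simulated data. RefSeq promoters matched 62 members (not Hist1h3f, Hist1h2bc, Hist1h3a, Hist2h2be or Hist2h4).

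Members and lists were chosen with earlier results of these data known. Named genes were those without a peak, the 3 highest and 2 lowest per type, all Hist2, Hist3 and Hist4 members, germline forms, extremes of footprints and ratio, and the 2 highest of each other list; others were named after their values were seen. Alternatives were the shorter list, stronger peaks, other windows and start sites, nearest assignment, repeated promoters left out, a stricter FDR, extended footprints and each replicate left out.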

Additional observations from a re-analysis of the deposited data

How the results depend on the processing

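The count of open members was 62 with either library left out, 61 with the shorter peak list, 60 with peaks at or above the median signal, 55 and 63 with windows of 100 and 1000 bp, and 57 with each peak given to its nearest member. That last setting moved the median signal of replicate 1 to 4.89. The median footprint count of replicate 2 moved from 4.5 to 5 with the shorter list, stronger peaks, windows of 100 or 1000 bp, repeated promoters left out, or a window around the first coding base (added after seeing the data), and to 4 with nearest assignment. At an FDR of 0.001 the median bases per window were 652 in replicate 1 and 728 in replicate 2, from 782 and 801. With footprints extended by 5 bp, CCAAT bases in footprints were 55.0% and 46.7%, since wider footprints cover more bases. From 500 before to 100 after the TSS, CCAAT was in 59 and TATAAA in 42 members, beside 58.3% and 25.5% of all promoters.

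The median ratio ranged from -0.10, without repeated promoters, to 0.59, over the 16 members with single-copy peaks. A library's own medians do not change when the other is left out. No paired analysis was possible because there was 1 group. Read depth is unknown. Having only 2 libraries, taken as separate animals under a shared donor identifier, limits every comparison between them.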
